A study of Mus musculus with 9 samples.

Results

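The JAK-STAT feedback genes described here are 7 mouse genes, namely Cish, Socs1, Socs2, Socs3, Pim1, Pim2 and Osm. They were picked by name among the array's probes other than controls, with the probe of highest mean standing for each gene. They are 7 of 22876 genes or regions tested on 9 one-colour microarrays, and all 7 passed the filter on dim probes, which asks for a signal well over background throughout 1 or more groups. RNA came from LSK cells, the bone marrow fraction without lineage markers and with Sca1 and cKit that holds blood stem cells and early progenitors. The cells came from female mice and were grown for 72 h with 10 ng/mL IL-3, 10 ng/mL IL-6, 50 ng/mL stem cell factor, 10% serum and 250 nM 4OH-tamoxifen, with 50000 cells per well in 50 µL. There were 3 groups of 3 samples. Drosha-deleted cells carried Drosha fl/fl and Gt(ROSA)26Sor CreERT2, Dicer-deleted cells carried Dicer fl/fl and Gt(ROSA)26Sor CreERT2, and control cells carried Gt(ROSA)26Sor CreERT2 without a floxed gene. The Cre sits in a locus active in most cell types and was switched on by tamoxifen in culture, so the controls carried the same Cre and received the same drug. The labels do not say that the replicates came from separate animals, so a p-value here reflects only how much these samples vary, which may be technical, and 3 arrays per group limit the precision.

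Drosha cuts primary microRNA transcripts in the nucleus and Dicer cuts the resulting hairpins in the cytoplasm, so that both are needed for most mature microRNAs. Cytokines such as IL-3 and IL-6 bind receptors that carry JAK kinases, the JAKs phosphorylate STAT proteins, and the STATs enter the nucleus and switch on target genes. IL-3 acts mainly through Jak2 and Stat5, IL-6 through Jak1 and Stat3, and stem cell factor through the receptor tyrosine kinase Kit. Cish and the Socs genes are STAT targets whose proteins bind the receptor or the JAK and dampen the signal, which makes them the classical feedback loop of this pathway. Pim1 and Pim2 are STAT targets that encode survival kinases, and Osm is a STAT5 target that encodes the IL-6 family cytokine oncostatin M.

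Socs1 is a known target of miR-155, and the mature microRNA is shown because its production needs both deleted enzymes. It lies on chromosome 16 at chr16:84714143-84714165 on the plus strand (RefSeq, GRCm38.p6), and the capitals mark the seed, bases 2 to 8.
mmu-miR-155-5p: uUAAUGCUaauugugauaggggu
STAT dimers bind the motif TTCNNNGAA, which reads the same on both strands. RefSeq promoter windows, from 250 bases before to 50 bases after a gene's start, were at hand for 5 of the 7 genes (6 windows, GRCm38.p6). The Cish window held 2 matches, beginning 0 and 11 bases after the annotated start, and the Socs3 window held 1, beginning 154 bases before it. The motif was found in 8.30% of 32851 mouse promoter windows of the same length, and 2 or more matches in 0.457%. The stretches with the matches are shown, in capitals, because Cish had the largest difference between Drosha-deleted and control cells among the 7 genes. They are at chr9:107296654-107296683 on the plus strand and chr11:117969507-117969525 on the minus strand.
Cish: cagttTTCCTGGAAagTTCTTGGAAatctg
Socs3: cagccTTCTTAGAAgggag
A match is a description of the letters in these windows and not a measured binding site.

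Values below are the authors' log2 values, whose columns share nearly the same quantiles, and groups were compared with limma over all 22876 genes or regions with Benjamini-Hochberg adjustment. A gene was called at an adjusted p under 0.05. The Drosha probe read 8.81, 8.92 and 9.32 in Drosha-deleted cells, against 12.04, 11.88 and 11.85 in control cells (difference −2.91, limma adjusted p = 0.000152). The Dicer1 probe read 8.99, 9.18 and 8.97 in Dicer-deleted cells, against 9.92, 10.50 and 10.44 in control cells (difference −1.24, limma adjusted p = 0.119), so that these groups did not overlap but the call was missed. Whether these probes lie in the deleted exons is not given in the sources used here. Control replicate 2 stood apart: its authors' column had r = 0.770 with its own scanner file over all probes, and r = 0.974 with that of control replicate 3, and 18.9% of its spots were marked non-uniform. Control replicates 2 and 3 were closest to each other (r = 0.991), while control replicate 1 was closest to Dicer-deleted replicate 3 (r = 0.993). For the 7 feedback genes, differences from control are therefore also given without control replicate 2 and with control replicate 1 as the only control, and none of them was called in either. The comparisons of Drosha-deleted and of Dicer-deleted cells with control use the same 3 control samples and are not independent of each other. By the scanner file headers, control replicate 3 was alone on slide 2 and scan 2, while all other arrays shared slide 1 and scan 1. The column of control replicate 2 followed the file of control replicate 3 more closely than its own, so the slide behind that column is not known. A slide or scan effect on the control mean cannot be told apart from control replicate 3, and control replicate 2 may share it.

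None of the 7 genes passed the threshold in any comparison. Over all genes tested, 0.170% were called between Drosha-deleted and control cells, 0.0175% between Dicer-deleted and control cells, 0.0568% between Drosha-deleted and Dicer-deleted cells, 0.131% between both deletions together and control cells, and 0.0918% for any difference among the 3 groups. At an unadjusted p under 0.05, limma gave 1 of the 7 genes (Cish) between Drosha-deleted and control cells, against 27.0% of all genes. It gave 0 between Dicer-deleted and control cells, against 21.9%, and 0 between both deletions and control cells, against 30.3%. Between Drosha-deleted and Dicer-deleted cells it gave 1 (Cish), against 5.69%, and for any difference among the 3 groups 1 (Cish), against 22.0%. Group values did not overlap for 1 of the 7 genes between Drosha-deleted and control cells (Cish, higher), against 23.2% of all genes in either direction. They did not overlap for 1 between Dicer-deleted and control cells (Pim2, lower), against 21.6%, and for 0 between Drosha-deleted and Dicer-deleted cells, against 15.4%. In the comparisons with control, the shares of the 7 genes were thus no higher than those of the whole array.

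**Figure D1:**
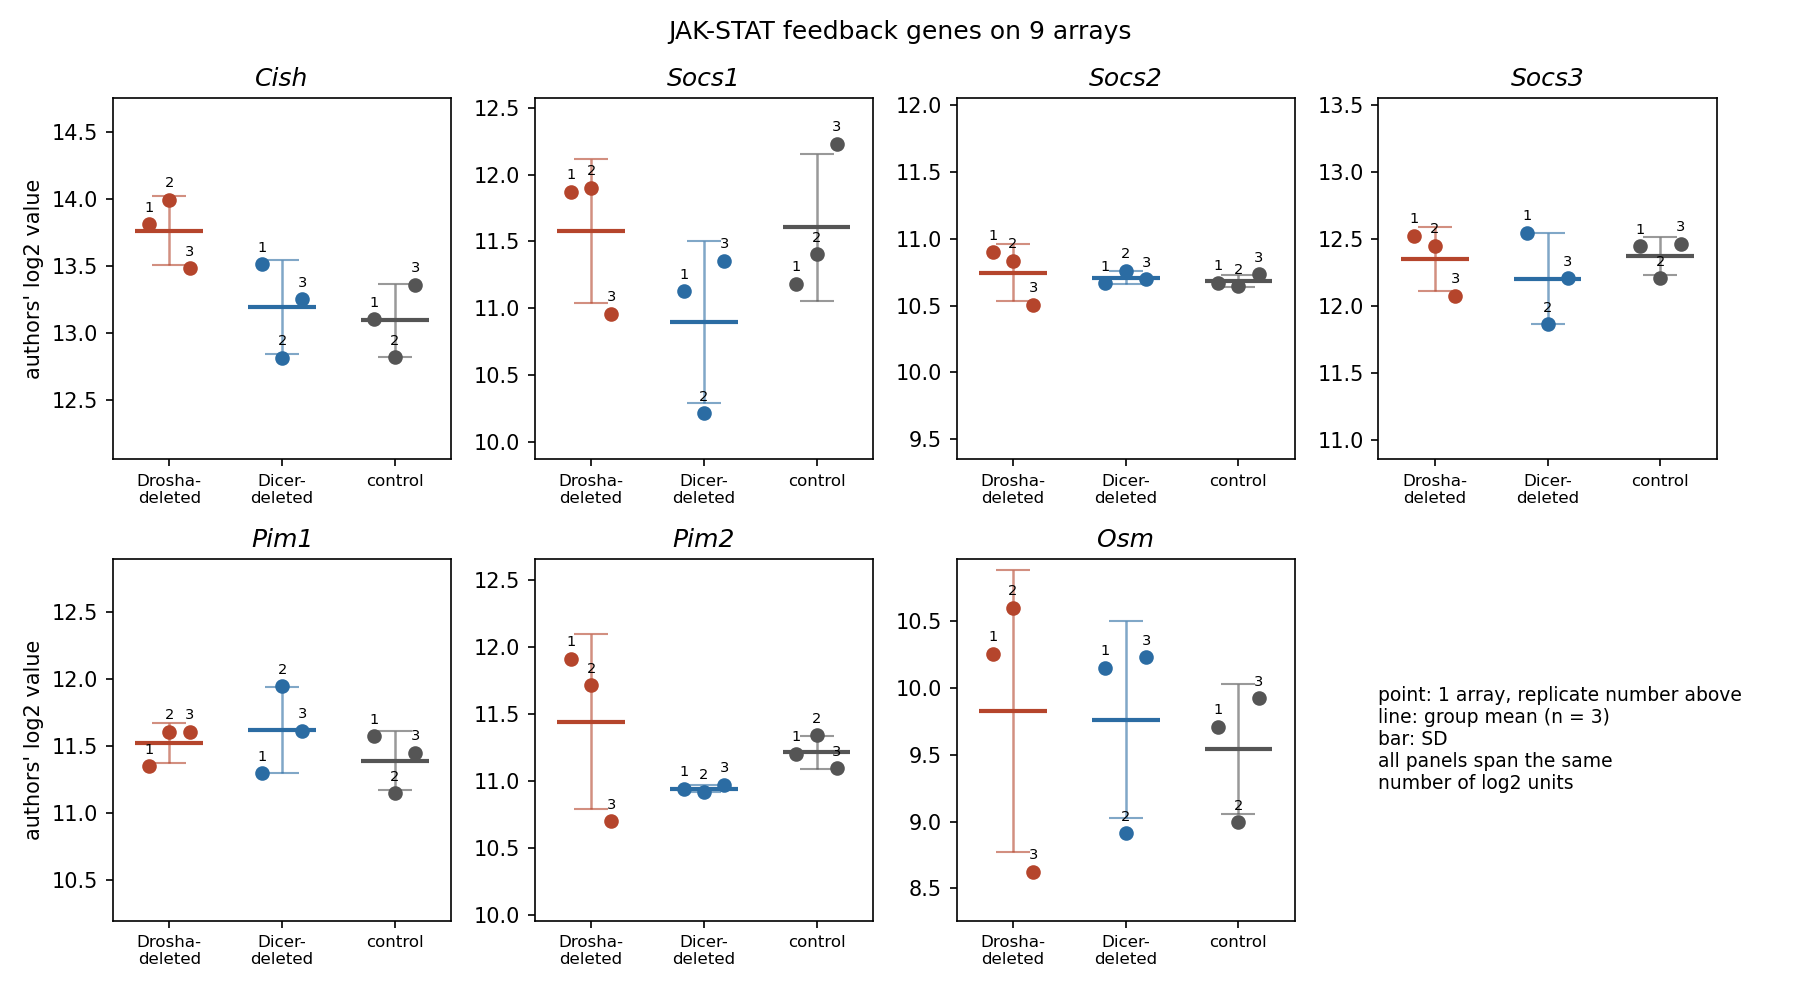
The authors' log2 value of each of the 7 genes on each array, with the group mean (line) and SD (bar, n = 3), for Drosha-deleted, Dicer-deleted and control cells; numbers are replicates. Cish is the only gene whose 3 Drosha-deleted values all lie above the 3 control values, and Osm, Socs1 and Pim2 in Drosha-deleted cells spread widely within a group.

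Cish encodes CIS, an SH2-domain protein that binds activated cytokine receptors and is the best known STAT5-induced inhibitor. Its probe (A_51_P470715, chr9:107204196-107204255, mm9) read 13.81, 14.00 and 13.49 in Drosha-deleted cells, 13.52, 12.82 and 13.25 in Dicer-deleted cells and 13.10, 12.82 and 13.36 in control cells. All 3 Drosha-deleted values lay above all 3 control values, while the Dicer-deleted values lay on both sides of them. The group means were 13.77 ± 0.26 in Drosha-deleted, 13.20 ± 0.35 in Dicer-deleted and 13.10 ± 0.27 in control cells (SD, n = 3). The Drosha-deleted mean was 0.67 log2 units above control (SE 0.22, 95% interval 0.17 to 1.17, 1.59-fold), with an unadjusted p of 0.0140 and a limma adjusted p of 0.122. It was 0.57 above the Dicer-deleted mean (SE 0.22, 95% interval 0.07 to 1.07, limma adjusted p = 0.780). The Dicer-deleted mean was 0.10 above control (SE 0.22, 95% interval −0.40 to 0.60, limma adjusted p = 0.804). The Drosha-deleted difference from control stayed positive in each of 19 other processings, between 0.43 and 1.01, the highest with scanner values, which moved the median of all genes by 0.36. It was 0.53 without control replicate 2 (limma adjusted p = 0.366) and 0.66 with control replicate 1 as the only control (limma adjusted p = 0.961). The Dicer-deleted difference was −0.04 without control replicate 2 and 0.09 with control replicate 1 as the only control.

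Socs1 encodes a strong inhibitor of the JAK kinases themselves. Its probe (A_51_P279606, chr16:10783951-10784010, mm9) read 11.87, 11.90 and 10.96 in Drosha-deleted cells, 11.13, 10.22 and 11.36 in Dicer-deleted cells and 11.18, 11.40 and 12.23 in control cells. The 3 groups overlapped, the lowest value came from Dicer-deleted replicate 2 and the highest from control replicate 3. The means were 11.58 ± 0.54 in Drosha-deleted, 10.90 ± 0.60 in Dicer-deleted and 11.60 ± 0.55 in control cells (SD, n = 3). The difference from control was −0.03 in Drosha-deleted cells (SE 0.39, 95% interval −0.91 to 0.85, limma adjusted p = 0.970) and −0.71 in Dicer-deleted cells (SE 0.39, 95% interval −1.58 to 0.17, limma adjusted p = 0.302). The Drosha-deleted mean was 0.68 above the Dicer-deleted one (SE 0.39, 95% interval −0.20 to 1.56, limma adjusted p = 0.983). The pooled within-group SD of 0.56 was larger than that of 95.4% of all genes tested. The Dicer-deleted difference was −0.36 without Dicer-deleted replicate 2, −0.39 without control replicate 3 and −0.28 with control replicate 1 as the only control (limma adjusted p = 1.00), and it was −0.81 without control replicate 2 (limma adjusted p = 0.538). The Drosha-deleted difference was −0.13 without control replicate 2 and 0.39 with control replicate 1 as the only control. A higher level of this microRNA target in either deletion was not detected, and the interval in Drosha-deleted cells is wide enough to hold a rise or a fall.

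Socs2 encodes a SOCS protein known above all for restraining growth hormone signalling. Its brightest probe (A_51_P107362, chr10:94875066-94875125, mm9, 10 spots per array) read 10.90, 10.84 and 10.51 in Drosha-deleted cells, 10.67, 10.76 and 10.70 in Dicer-deleted cells and 10.67, 10.65 and 10.73 in control cells. Dicer-deleted and control cells were tight and overlapped, and the Drosha-deleted values lay on both sides of them. The differences from control were 0.06 in Drosha-deleted (95% interval −0.23 to 0.35, limma adjusted p = 0.767) and 0.03 in Dicer-deleted cells (95% interval −0.26 to 0.31, limma adjusted p = 0.920), the narrowest intervals among the 7 genes. They were 0.04 in Drosha-deleted cells and 0.01 in Dicer-deleted cells without control replicate 2, and 0.08 in Drosha-deleted cells and 0.04 in Dicer-deleted cells with control replicate 1 as the only control. The other two probes of the gene did not point the same way. The probe at chr10:94875187-94875246 averaged 10.27 in Drosha-deleted, 10.26 in Dicer-deleted and 10.50 in control cells, and the probe at chr10:94875468-94875527 averaged 9.69, 9.62 and 9.92 in the same order of groups. With the mean of all 3 probes, the difference from control was −0.13 in Drosha-deleted (limma adjusted p = 0.583) and −0.17 in Dicer-deleted cells (limma adjusted p = 0.492).

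Socs3 encodes the inhibitor that binds gp130, the shared IL-6 receptor chain, together with its JAK. Its probe (A_51_P474459, chr11:117827480-117827539, mm9) read 12.53, 12.45 and 12.08 in Drosha-deleted cells, 12.55, 11.86 and 12.21 in Dicer-deleted cells and 12.45, 12.21 and 12.47 in control cells. All 3 groups overlapped. The difference from control was −0.02 in Drosha-deleted (95% interval −0.46 to 0.42, limma adjusted p = 0.949) and −0.17 in Dicer-deleted cells (95% interval −0.61 to 0.27, limma adjusted p = 0.616). They were −0.11 in Drosha-deleted cells and −0.25 in Dicer-deleted cells without control replicate 2, and −0.10 in Drosha-deleted cells and −0.24 in Dicer-deleted cells with control replicate 1 as the only control. Scanner values gave 0.38 in Drosha-deleted cells and 0.25 in Dicer-deleted cells, but there the median of all genes moved by 0.36 in Drosha-deleted cells and 0.38 in Dicer-deleted cells. Relative to that median Socs3 differed by 0.02 in Drosha-deleted cells and −0.13 in Dicer-deleted cells.

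Pim1 and Pim2 encode serine/threonine kinases that are active without an upstream kinase and promote survival and growth of blood cells. Pim1 (A_52_P530291, chr17:29630740-29630799, mm9) read 11.35, 11.61 and 11.61 in Drosha-deleted cells, 11.30, 11.95 and 11.62 in Dicer-deleted cells and 11.57, 11.15 and 11.45 in control cells. The groups overlapped, and the differences from control were 0.13 in Drosha-deleted (95% interval −0.29 to 0.56, limma adjusted p = 0.665) and 0.23 in Dicer-deleted cells (95% interval −0.19 to 0.66, limma adjusted p = 0.470). Leaving out 1 array moved the Pim1 difference to between 0.01, without control replicate 2, and 0.22 in Drosha-deleted cells. In Dicer-deleted cells it moved to between 0.07, without Dicer-deleted replicate 2, and 0.39, and it was 0.11 without control replicate 2. With control replicate 1 as the only control it was −0.05 in Drosha-deleted cells and 0.05 in Dicer-deleted cells. Pim2 (A_52_P608255, chrX:7459678-7459737, mm9) read 11.91, 11.72 and 10.70 in Drosha-deleted cells, 10.94, 10.92 and 10.97 in Dicer-deleted cells and 11.20, 11.34 and 11.10 in control cells. The 3 Dicer-deleted values were tight and all lay below the 3 control values. In Drosha-deleted cells 2 values lay above and 1 below every other sample. The Pim2 difference from control was 0.23 in Drosha-deleted (SE 0.27, 95% interval −0.39 to 0.85, limma adjusted p = 0.602) and −0.27 in Dicer-deleted cells (SE 0.27, 95% interval −0.89 to 0.35, limma adjusted p = 0.565). The Drosha-deleted difference was 0.60 without Drosha-deleted replicate 3 (limma adjusted p = 0.0858), 0.09 without Drosha-deleted replicate 2 and −0.01 without Drosha-deleted replicate 1. It was 0.29 without control replicate 2 and 0.24 with control replicate 1 as the only control. The Dicer-deleted difference was −0.21 without control replicate 2 (limma adjusted p = 0.815) and −0.26 with control replicate 1 as the only control (limma adjusted p = 1.00).

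Osm, the one secreted ligand among the 7 genes, varied most. Its probe (A_51_P291361, chr11:4140146-4140205, mm9) read 10.25, 10.60 and 8.62 in Drosha-deleted cells, 10.15, 8.91 and 10.23 in Dicer-deleted cells and 9.71, 8.996 and 9.92 in control cells. Each group held 1 low sample, and the Drosha-deleted cells spanned every other sample. The pooled within-group SD was 0.79, larger than that of 98.7% of all genes tested. The differences from control were 0.28 in Drosha-deleted (95% interval −0.94 to 1.502, limma adjusted p = 0.753) and 0.22 in Dicer-deleted cells (95% interval −0.998 to 1.44, limma adjusted p = 0.825). Without Drosha-deleted replicate 3 the Drosha-deleted difference was 0.88 (limma adjusted p = 0.228), and without control replicate 2 it was 0.01 (limma adjusted p = 0.995). The Dicer-deleted difference was −0.05 without control replicate 2, and with control replicate 1 as the only control the differences were 0.12 in Drosha-deleted cells and 0.05 in Dicer-deleted cells. The Osm spot of control replicate 2 was marked as an outlier in its scanner file and left out of the scanner values, which then gave −0.05 in Drosha-deleted cells with 2 control samples (limma adjusted p = 0.968).

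**Figure D2:**
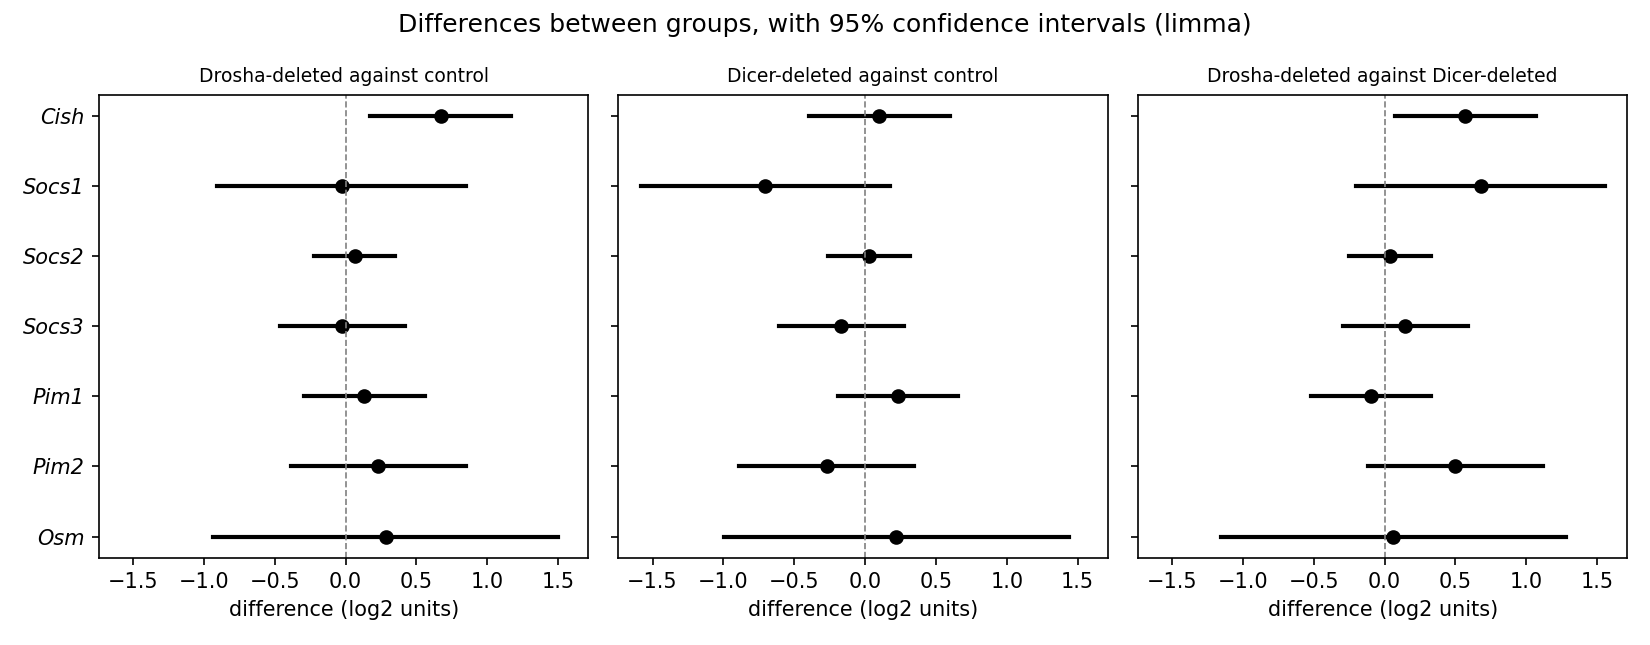
Differences between group means in log2 units for the 7 genes (dots) with 95% confidence intervals from limma (lines), for Drosha-deleted against control, Dicer-deleted against control and Drosha-deleted against Dicer-deleted cells. The intervals for Cish in the left and right panels (0.17 to 1.17 and 0.07 to 1.07) leave out 0, all others include it, and the interval for Osm is the widest in each panel.

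Several of the 7 genes were lowest within their group on the same arrays. How often all genes were lowest on these arrays was not counted, so this describes the 7 genes only. Drosha-deleted replicate 3 was the lowest of its group for 6 of the 7 genes (Pim1 was the exception and was highest there). Dicer-deleted replicate 2 was the lowest for 5 (Cish, Socs1, Socs3, Pim2 and Osm), while Socs2 and Pim1 were highest there. Control replicate 2 was the lowest for 5 (Cish, Socs2, Socs3, Pim1 and Osm), while Pim2 was highest there. The means of some marker lists of other cell types were lowest on these same arrays. The mean log2 value of 7 of 7 mast cell and basophil markers ranged from 11.51 to 12.65 in Drosha-deleted, from 11.29 to 12.42 in Dicer-deleted and from 11.59 to 12.55 in control cells, and its lowest array in each group was that same one. The same held for the mean of the neutrophil list (7 of 7 tested). It ranged from 15.27 to 16.08 in Drosha-deleted, 14.20 to 16.01 in Dicer-deleted and 14.53 to 15.99 in control cells. The mean of the eosinophil list (5 of 5 tested) did so too. Its ranges were 8.31 to 8.76, 7.64 to 8.98 and 8.22 to 9.01 in the same order of groups. Single markers did not all follow their list. Within their groups, the neutrophil genes Elane and Mpo were lowest on Drosha-deleted replicate 1. The mast cell gene Tpsb2 was lowest on Dicer-deleted replicate 1 and control replicate 3. The eosinophil genes Il5ra and Ccr3 were highest on Drosha-deleted replicate 3 and control replicate 2. The 8 of 8 LSK and stem cell markers ranged from 11.19 to 11.91 in Drosha-deleted cells, where replicate 3 was the highest, from 11.33 to 11.57 in Dicer-deleted and from 11.42 to 11.63 in control cells. These are means of log2 values over a list and are compared between arrays only. No marker of these lists was missing among the genes tested. In RNA from a mixed culture, fewer cells of a type and less RNA per cell cannot be told apart, and the part of these cell types in the values of the 7 genes was not tested.

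**Figure D3:**
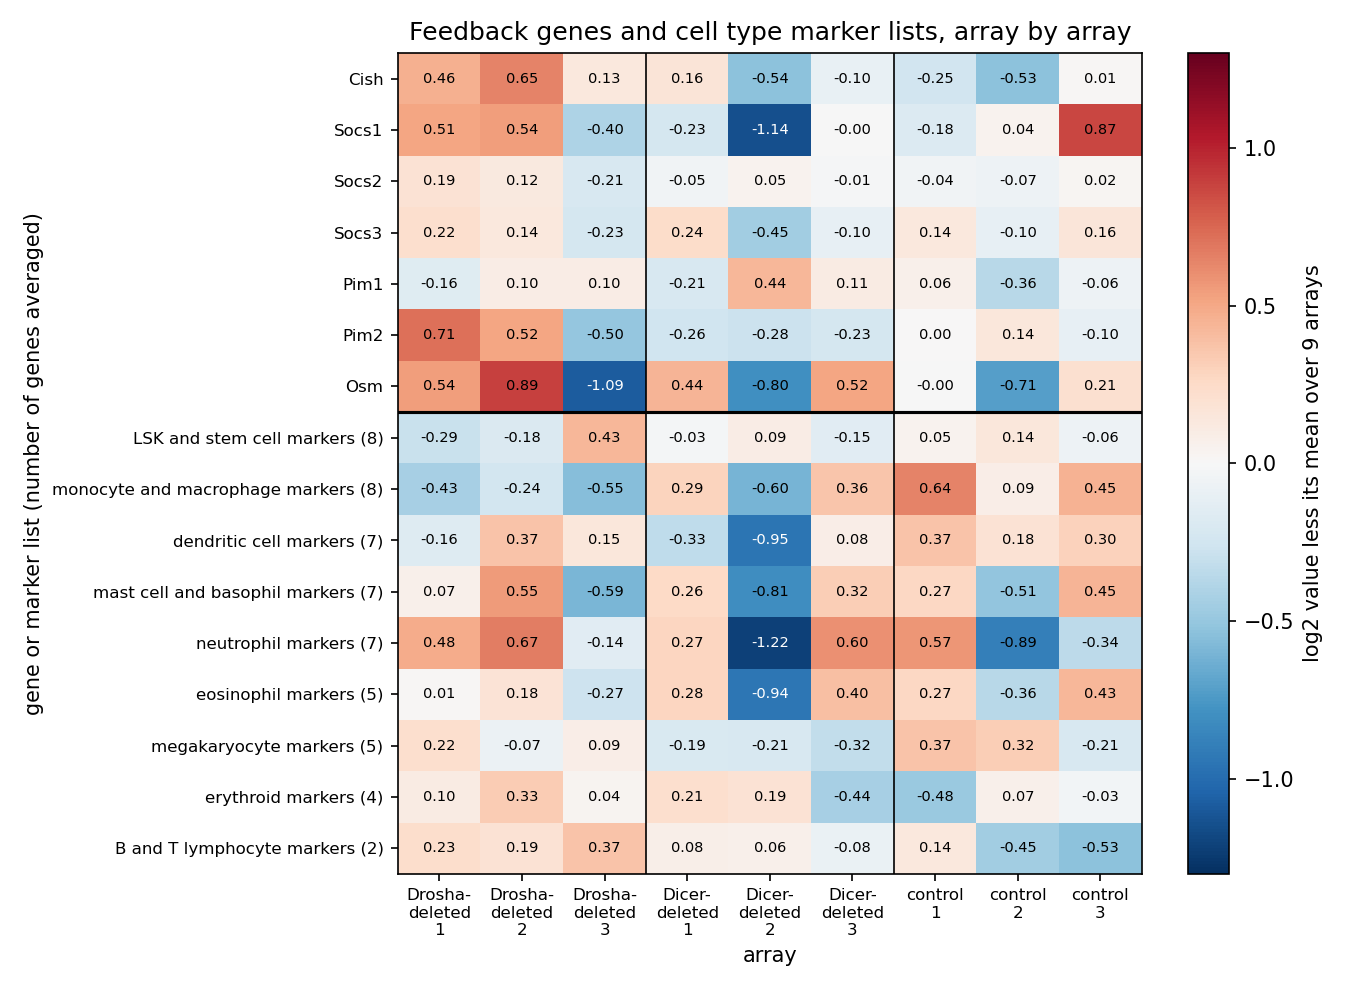
Deviation of each of the 7 genes (upper rows) and of the mean of each marker list (lower rows, number of genes in brackets) from its own mean over the 9 arrays, in log2 units, by array. Drosha-deleted replicate 3, Dicer-deleted replicate 2 and control replicate 2 are low for Osm (−1.09, −0.80 and −0.71) and for mast cell and basophil markers (−0.59, −0.81 and −0.51).

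The list mean of monocyte and macrophage markers, over 8 of 8, was 9.67 to 9.99 in Drosha-deleted, 9.62 to 10.58 in Dicer-deleted and 10.31 to 10.87 in control cells, so that the Dicer-deleted range overlapped both others. Its lowest arrays were again Drosha-deleted replicate 3, Dicer-deleted replicate 2 and control replicate 2. Among these markers, Msr1 was well above background on 2 of 3 Drosha-deleted, 2 of 3 Dicer-deleted and 3 of 3 control arrays. It passed the filter through the control group alone, and its difference of −1.42 in Drosha-deleted cells relative to control is part of the list mean. The list mean is therefore a description only when groups are compared. Cd14, the endotoxin coreceptor of monocytes, fell by 1.26 in Drosha-deleted cells relative to control (limma adjusted p = 0.0298) and was the only marker that was called in any comparison. Without control replicate 2 its difference was −1.22 and the call was lost (limma adjusted p = 0.147). Dendritic cell markers (7 of 7) ranged from 10.55 to 11.08 in Drosha-deleted, from 9.77 to 10.80 in Dicer-deleted and from 10.90 to 11.09 in control cells. Megakaryocyte markers (5 of 5) ranged from 13.76 to 14.05 in Drosha-deleted, 13.51 to 13.64 in Dicer-deleted and 13.62 to 14.21 in control cells. Of the erythroid list 4 of 6 markers were tested (9.51 to 9.80, 9.03 to 9.68 and 8.98 to 9.53 in the same order of groups), and Hbb-b1 was among those that were not. Of the B and T lymphocyte list 2 of 7 were tested (8.47 to 8.65, 8.20 to 8.36 and 7.75 to 8.42), and the defining genes Ebf1, Pax5, Cd3g and Cd8a were among those that were not.

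The rest of the pathway was read from 7 lists of 69 genes, of which 64 were tested. None of the 64 was called in any comparison by limma. At an unadjusted p under 0.05 there were 13 of 64 (20.3%) between Drosha-deleted and control cells, 4 higher and 9 lower, against the 27.0% of all genes given above. Between Dicer-deleted and control cells there were 10 (15.6%), 2 higher and 8 lower, against 21.9% of all genes. Between Drosha-deleted and Dicer-deleted cells there were 8 (12.5%), 6 higher and 2 lower, against 5.69% of all genes. Between both deletions and control cells there were 13 (20.3%), 3 higher and 10 lower, against 30.3% of all genes. The median difference of the 64 genes was −0.04 in Drosha-deleted cells and −0.11 in Dicer-deleted cells relative to control, where the median over all genes was 0.00 in both.

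Among the receptors, Il6st encodes gp130, through which IL-6 and oncostatin M both signal. It read 10.99, 10.71 and 10.16 in Drosha-deleted cells, 10.08, 9.33 and 10.08 in Dicer-deleted cells and 10.57, 10.39 and 10.33 in control cells. The Dicer-deleted values lay below those of both other groups, with a difference of −0.60 from control (limma adjusted p = 0.219), and the Drosha-deleted mean was 0.79 above the Dicer-deleted one (limma adjusted p = 0.666). Csf2rb, the common β chain of the IL-3 receptor, read 15.42, 15.54 and 14.62 in Drosha-deleted cells, 15.60, 14.83 and 15.55 in Dicer-deleted cells and 15.40, 14.84 and 15.77 in control cells. It was lowest on the same 3 arrays as Osm, and the groups overlapped. Osmr, the specific oncostatin M receptor chain, was not tested, since its probes failed the filter on dim probes. Over the 7 receptor genes tested the median difference from control was −0.11 in Drosha-deleted cells and −0.01 in Dicer-deleted cells, with 0 called.

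All 11 JAK and STAT genes were tested. Stat2, the interferon-responsive STAT, read 11.05, 10.73 and 11.28 in Drosha-deleted cells, 10.77, 10.68 and 10.94 in Dicer-deleted cells and 11.26, 11.35 and 11.08 in control cells, and the Dicer-deleted values lay below all control values (difference −0.43, limma adjusted p = 0.189). Tyk2, a JAK kinase, read 10.48, 10.57 and 9.71 in Drosha-deleted, 10.84, 10.66 and 10.71 in Dicer-deleted and 10.61, 9.82 and 9.60 in control cells (0.73 above control in Dicer-deleted cells, limma adjusted p = 0.204). Stat5a, a STAT downstream of IL-3, read 12.01, 12.13 and 12.63 in Drosha-deleted cells, 12.29, 12.24 and 12.28 in Dicer-deleted cells and 12.20, 12.79 and 12.75 in control cells, and the groups overlapped (−0.32, limma adjusted p = 0.324 and −0.31, limma adjusted p = 0.375). The Stat5a difference in Drosha-deleted cells was −0.51 both without control replicate 1 (limma adjusted p = 0.0565) and without Drosha-deleted replicate 3 (limma adjusted p = 0.168), and 0.06 with control replicate 1 as the only control. The median difference of the list was 0.07 in Drosha-deleted cells and −0.04 in Dicer-deleted cells.

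Other negative regulators of the pathway gave 0 of 12 calls in each comparison, with medians of 0.06 in Drosha-deleted cells and 0.07 in Dicer-deleted cells. Ptpn11, which encodes the phosphatase SHP-2, read 14.27, 14.29 and 14.57 in Drosha-deleted cells, 14.55, 14.35 and 14.08 in Dicer-deleted cells and 14.81, 14.98 and 14.95 in control cells. Both deletion groups lay below all control values (−0.54, limma adjusted p = 0.108 in Drosha-deleted cells, and −0.59, limma adjusted p = 0.147 in Dicer-deleted cells). Sh2b3, the adaptor LNK that restrains Jak2 in blood progenitors, was 0.40 above control in Drosha-deleted cells without overlap (limma adjusted p = 0.122). Ptprc, the phosphatase CD45, differed by −0.41 in Drosha-deleted cells, also without overlap (limma adjusted p = 0.121). Of the other SOCS and Pim relatives (Socs4, Socs5, Socs6, Socs7 and Pim3) none of 5 was called. Socs5 differed most, with 9.13, 9.28 and 9.06 in Drosha-deleted, 9.16, 9.53 and 9.03 in Dicer-deleted and 8.80, 10.34 and 10.23 in control cells (−0.64, limma adjusted p = 0.278 and −0.55, limma adjusted p = 0.376), and control replicate 1 was lower than the deletion samples. With control replicate 1 as the only control the Socs5 difference was 0.35 in Drosha-deleted cells and 0.44 in Dicer-deleted cells.

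Other genes reported as induced through Stat3 or Stat5 gave 0 of 16 calls, with medians of −0.05 in Drosha-deleted cells and −0.14 in Dicer-deleted cells. Gadd45g, a growth arrest gene induced by cytokines, read 14.07, 13.59 and 13.66 in Drosha-deleted cells, 12.78, 12.14 and 13.06 in Dicer-deleted cells and 13.44, 13.28 and 13.30 in control cells. The 3 groups did not overlap at all. Its Drosha-deleted mean was 1.11 above the Dicer-deleted one (unadjusted p = 0.000979, limma adjusted p = 0.273), 0.43 above control (limma adjusted p = 0.251), and its Dicer-deleted mean differed from control by −0.67 (limma adjusted p = 0.178). Bcl3, a Stat3 target that encodes an IκB family protein, was 0.62 higher in Drosha-deleted than in Dicer-deleted cells without overlap (limma adjusted p = 0.424). Bcl6, a repressor that binds many STAT sites, read 9.81, 9.64 and 9.80 in Drosha-deleted cells, 9.56, 9.25 and 9.45 in Dicer-deleted cells and 10.07, 10.08 and 9.94 in control cells, so that the groups did not overlap (−0.28, limma adjusted p = 0.179 and −0.61, limma adjusted p = 0.128 relative to control). Ccnd3, the cyclin D3 gene, was 0.72 above control in Drosha-deleted cells without overlap (limma adjusted p = 0.104). It read 15.26, 15.21 and 14.81 in Drosha-deleted and 14.73, 14.35 and 14.04 in control cells, so control replicate 1 lay just below the Drosha-deleted values. Myc differed by −0.86 in Drosha-deleted cells (limma adjusted p = 0.122) with control replicate 1, at 12.37, among the deletion samples.

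Among cytokine genes other than Osm 7 of 9 were tested and 0 were called, and Csf2 and Il10 were not tested. Ctf1, the IL-6 family cytokine cardiotrophin-1, read 7.31, 6.999 and 7.47 in Drosha-deleted cells, 8.03, 8.36 and 7.36 in Dicer-deleted cells and 8.07, 8.75 and 8.52 in control cells. The Drosha-deleted values lay below all control values (−1.19, limma adjusted p = 0.0896).

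Other reported targets of miR-155 were read beside Socs1. Of 9 such genes 8 were tested, 0 were called, and the median difference from control was −0.17 in Drosha-deleted cells and −0.30 in Dicer-deleted cells. For each deletion 6 of the 8 had means below control, and 2, Inpp5d and Spi1, had means above it. Inpp5d lay 0.19 above control after loss of Drosha and 0.28 after loss of Dicer. Spi1 lay 0.15 above control after loss of Drosha and 0.47 after loss of Dicer. For both genes the groups overlapped. Maf, a transcription factor gene, read 5.76, 5.57 and 5.88 in Drosha-deleted cells, 5.71, 5.71 and 6.10 in Dicer-deleted cells and 6.41, 7.09 and 7.17 in control cells. The Maf probe was well above background on 0 of 3 Drosha-deleted arrays, 1 of 3 Dicer-deleted arrays and 3 of 3 control arrays, so it passed the filter through the control group alone. In Drosha-deleted cells Maf differed from control by −1.15 and was not called (limma adjusted p = 0.0686). Because its probe was kept through the control values, this size is a description only. Jarid2, a Polycomb cofactor, differed by −0.73 in Dicer-deleted cells without overlap (limma adjusted p = 0.153). Ets1 differed by −0.87 in Dicer-deleted cells (limma adjusted p = 0.186), with 8.44, 8.43 and 8.38 there and 8.47, 9.91 and 9.48 in control cells. Control replicate 1 lay just above the Dicer-deleted values, so the Ets1 difference rests on control replicates 2 and 3. The probes named here gave no value for Mir155hg, the host transcript of miR-155.

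The genes whose pattern over the 9 arrays was most like that of each feedback gene were named by Pearson's r among tested genes with a symbol. The points share arrays, groups and normalisation, and the values are a description. For Cish they were Cst7 (r = 0.971), Tm2d1 and Plbd2, for Socs1 Tgm1 (r = 0.968), Trpv2 and Klf2, and for Socs2 Slc7a11 (r = 0.980), Tlcd1 and Tmem126b. For Socs3 they were Abcd2 (r = 0.955), Rflnb and Ctsg, for Pim1 Mlkl (r = 0.922), Rab5c and Cd3eap, and for Pim2 Rmi2 (r = 0.936), Mcpt4 and Bub3. For Osm they were Cd200r3 (r = 0.986), Hgf and Pilrb1. Cst7, the closest to Cish, encodes the protease inhibitor cystatin F, Ctsg the granule protease cathepsin G, and Mcpt4 a mast cell protease.

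Calls for the feedback genes appeared under 1 processing only. In this processing limma weighted each array by how closely it followed its own group mean. The weight was 0.146 for control replicate 1 and 0.365 for Drosha-deleted replicate 3, and 0.805 to 2.45 for the other 7 arrays. Such a weight does not measure the quality of a scan. Control replicate 2, with 18.9% of its spots marked non-uniform, had a weight of 1.11. With these weights Cish (0.66, limma adjusted p = 0.0228) and Pim2 (0.57, limma adjusted p = 0.0279) were higher in Drosha-deleted than in control cells. Socs1 was lower in Dicer-deleted than in control cells (−0.98, limma adjusted p = 0.0295). For any difference among the 3 groups 3 of the 7 genes were called. Under the same weights 50.9% of all genes were called between Drosha-deleted and control cells, 43.8% between Dicer-deleted and control cells and 51.0% for any difference, so that 2, 1 and 3 of 7 are no more than the whole array gave. Leaving out control replicate 1 altogether led to calls for 33.8% of all genes between Drosha-deleted and control cells and 30.6% between Dicer-deleted and control cells, but for 0 of the 7 feedback genes. In the same fit 14 of the 64 pathway genes were called between Drosha-deleted and control cells (5 higher, 9 lower) and 11 between Dicer-deleted and control cells (3 higher, 8 lower). With array weights 27 of the 64 were called between Drosha-deleted and control cells (11 higher, 16 lower) and 20 between Dicer-deleted and control cells (5 higher, 15 lower).

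**Figure D4:**
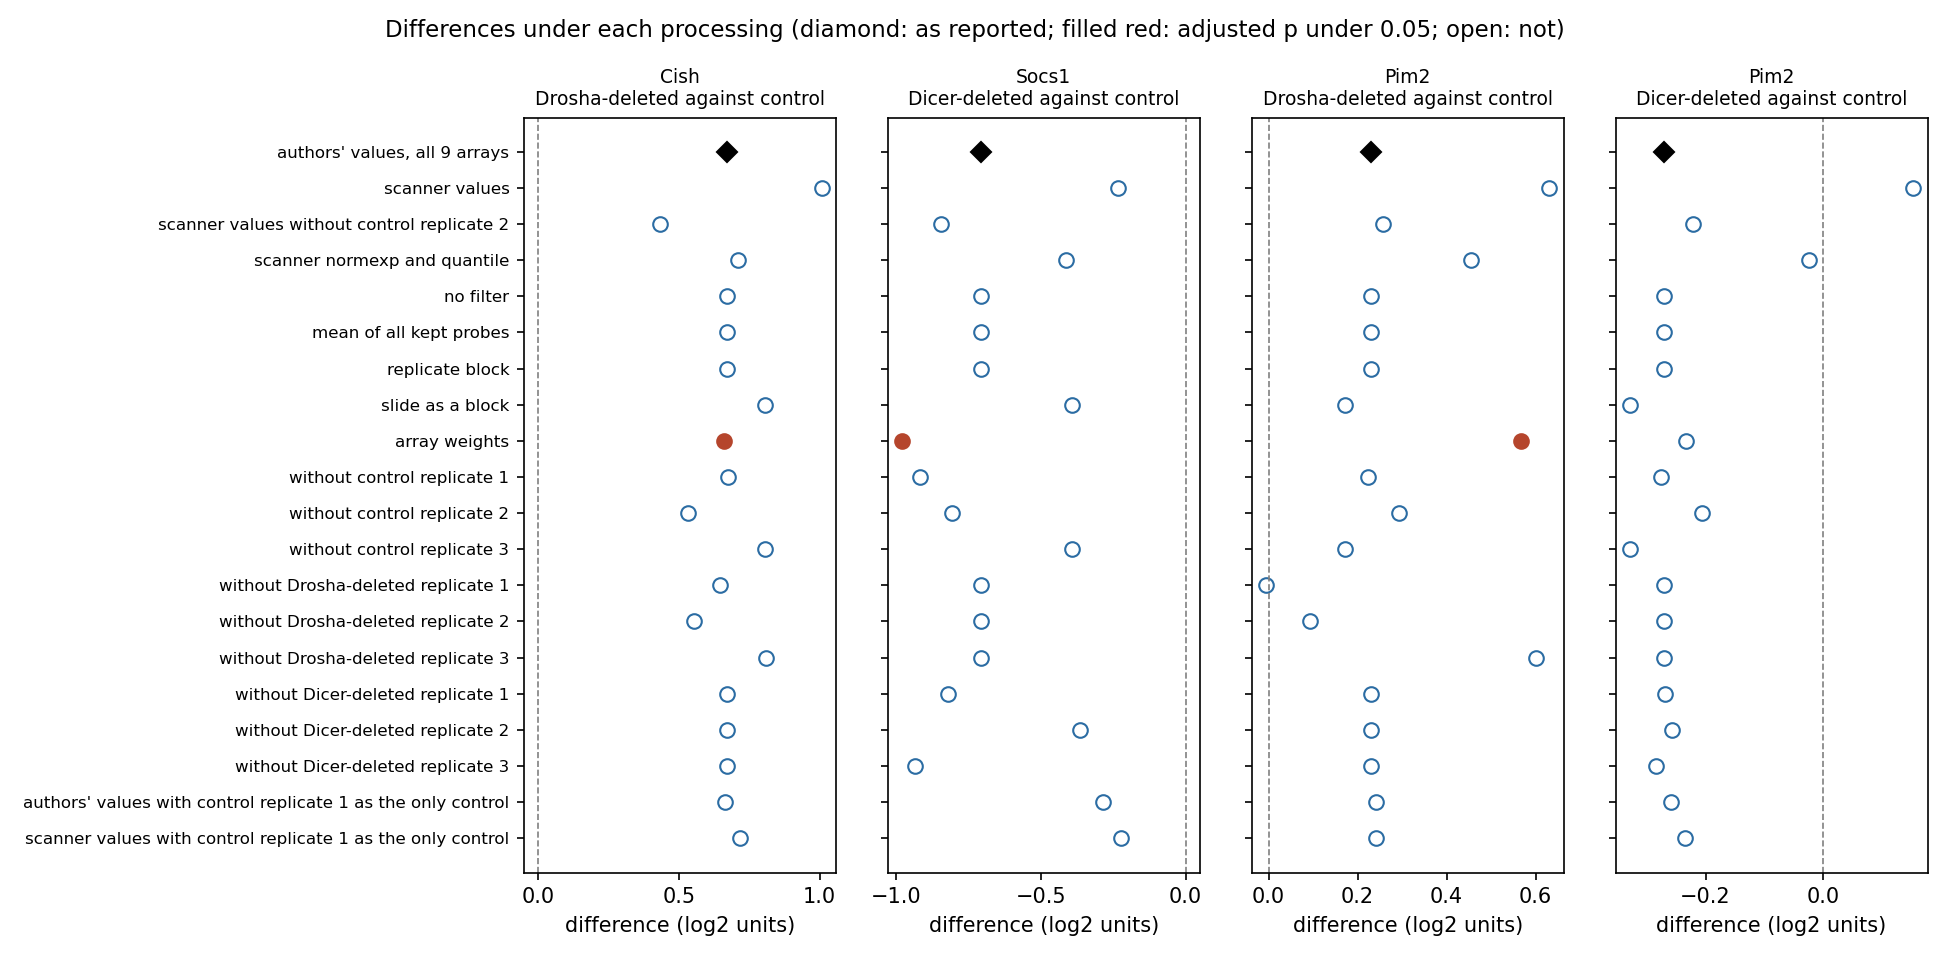
Differences in log2 units for Cish and Pim2 (Drosha-deleted against control) and for Socs1 and Pim2 (Dicer-deleted against control) under each processing; the diamond is the reported value, filled red circles have an adjusted p under 0.05 and open circles do not. Cish stays between 0.43 and 1.01, while Pim2 in Drosha-deleted cells spans −0.01 to 0.63 and turns with which Drosha-deleted array is left out.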

How the data were processed

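The deposited scanner files hold spot intensity in Cy3, made with Agilent Feature Extraction 10.7.3.1 (protocol GE1_107_Sep09, array design 028005, mm9 positions), per the file headers. The authors' series table holds log2 values with nearly shared quantiles and medians of 6.36 to 6.38. The submitters' processing notes name limma without a version. Probes were kept when the scanner software marked them as well over background throughout 1 or more groups, were named through RefSeq (GRCm38.p6), and the brightest kept probe stood for a gene. Group means were fitted to the authors' log2 values over all 9 arrays with limma 3.58.1 (R 4.3.3) and adjusted by Benjamini-Hochberg over 22876 genes or regions; the script was tested on simulated data. Alternatives were scanner signals less the 75th percentile, normexp (offset 50) with quantile normalisation, no filter, mean of probes, replicate or slide as a block, array weights and leaving out each array. Slides were those of the file headers, which may not hold for the column of control replicate 2. Control replicate 1 as the only control was added after seeing the data. The 7 genes and the lists were chosen with earlier results of these data known. Of each list, called genes or up to 3 with the smallest p per comparison were named, and 3 by likeness for each feedback gene; the text gives a selection of them. Deviations of same-numbered replicates from their group means had r of −0.28 to 0.24 (2 of 9 pairs over 0.1). With 3 samples per group this cannot show whether samples were paired. The labels do not say so, and the main fit did not pair them. Some genes and 1 gene list are not reported here.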

Additional observations from a re-analysis of the deposited data

How the results depend on the processing

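Each of the 7 genes was recomputed in 4 comparisons under 19 alternatives, 532 differences in all. The sign changed in 74 of them, 10 by more than the gene's within-group SD, and only the array weights produced calls, 3 in all, whose values are in the report. With all probes of Socs2 averaged, its difference from control was −0.13 in Drosha-deleted, −0.17 in Dicer-deleted and −0.15 in both deletions together. With scanner values Socs3 differed by 0.38 in Drosha-deleted, 0.25 in Dicer-deleted and 0.32 in both, and Pim2 by 0.15 in Dicer-deleted and 0.39 in both; these fits include control replicate 2 and move the median of all genes by 0.36 in Drosha-deleted cells, 0.38 in Dicer-deleted cells and 0.37 in both. Relative to that median, Socs3 was at 0.02, −0.13 and −0.05 in these comparisons, and Pim2 at −0.22 in Dicer-deleted cells and 0.02 in both. With normexp and quantile normalisation Socs3 differed by 0.10 in Dicer-deleted and 0.16 in both, below the shift of the median of all genes, 0.19 in each. These are the 10 whose sign turned by more than the SD; none was called, and the cause was not tested beyond these shifts. Counts of genes called are given next, in the order Drosha-deleted against control, Dicer-deleted against control, Drosha-deleted against Dicer-deleted, both deletions against control, and any difference. The reported counts were 39, 4, 13, 30 and 21. They were 7, 3, 2, 5 and 11 with scanner values, 10, 4, 5, 3 and 10 with scanner values without control replicate 2, 1, 0, 2, 0 and 1 with normexp and quantile normalisation, 25, 2, 10, 10 and 14 without a filter, 38, 4, 13, 45 and 33 with probes averaged, 13, 3, 7, 6 and 12 with slide as a block, which equals leaving out control replicate 3, and 11651, 10030, 149, 12065 and 11666 with array weights. With control replicate 1 as the only control they were 38, 21, 11, 29 and 30 in the authors' values and 32, 20, 5, 25 and 31 in scanner values. Leaving out 1 array at a time gave 4 to 7732, 0 to 7007, 4 to 16, 3 to 8573 and 6 to 6871, the highest each time without control replicate 1; without control replicate 2 they were 6, 1, 11, 3 and 6, and without Drosha-deleted replicate 3 60, 8, 5, 305 and 28. Each of the 9 arrays moved at least 1 of the 5 counts by over 1.5 times, and where leaving out a Dicer-deleted array gave 0 for that deletion against control, 2923 to 3698 genes had an unadjusted limma p under 0.05. The replicate block gave 4, 0, 5, 0 and 3. Whether the numbers pair the samples is not known. The block made no call for the 7 genes, with Cish at 0.67 in Drosha-deleted cells (limma adjusted p = 0.165). At an unadjusted p under 0.05 the block still gave 4507 and 6266 genes where its adjusted count was 0, and limma on normexp values 1933 and 3080. Signals of the 7 genes were well over background and not saturated, apart from the Osm spot of control replicate 2, which was left out as an outlier.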
